A study of Mus musculus with 16 samples.

Results

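The genes described here are 10 autosomal genes that were expressed mostly from the 129 allele in at least 1 clone of neural progenitor cells (NPCs) and mostly from the Castaneus (Cast) allele in at least 1 other. They are Ttpa, Ssbp4, Grk3, Asb13, Fam184a, Smpdl3b, Pla2g7, Aebp1, Slc27a6 and Pyroxd2, out of 50600 genes listed. The allelic expression ratio, the percentage of allele-specific reads that carry Cast variants, was the value the members were chosen by: under 15% in 1 NPC clone and over 85% in another, with at least 20 allele-specific reads in each. Across all autosomal genes, 96 of the 11789 measured in at least 2 NPC clones met the same limits (0.814%), and the 10 were taken from these for their read coverage. The NPC ratios are therefore given as a description, without a test. The rule used neither astrocyte ratios nor neighbouring genes. Read coverage depends on total level, so total level did enter the choice, and the shares over all genes given beside the members include genes of lower coverage.

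All 16 libraries came from 129Sv x Cast/EiJ hybrid mouse embryonic stem cells that had been differentiated into NPCs and picked as single colonies after limiting dilution, so that every line is 1 clone. The clones Ch3, Ch5, Ch7 and Ch8 are male NPC lines with 2 rRNA-depleted libraries each. Clones F5 (female), mG2 and mG6 (both male) are NPC lines with 1 poly(A) library each. The 5 astrocyte libraries, also poly(A), came from astrocytes made from the NPC clones named 129, C2 and G4 (female) and mC3 and mE6 (male). No clone is present both as NPCs and as astrocytes here, so the fate of 1 clone's allelic state through differentiation was not measured. Clones of the astrocyte and poly(A) NPC groups have no second library, and the 2 libraries of a Ch clone share that clone, so that p-values among Ch clones measure only the spread between libraries, which may be technical.

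Most autosomal genes are transcribed from both alleles. In random monoallelic expression, a cell keeps 1 allele active and the other silent, the choice differs between cells, and daughter cells inherit it, so it is seen as a difference between clones and is hidden in a mixed population. Imprinted genes differ from this pattern, because the same parental allele is silent in every clone, and so do genes whose sequence variants favour the same strain's allele everywhere. A gene that is 129-only in 1 clone and Cast-only in another follows neither of these fixed patterns. Whether silencing of 1 allele lowers the total level of a gene, or the active allele makes up for it, is the question of dosage.

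Reads assigned to genes, in units of 1e6, ranged from 69.9 to 105.9 in the poly(A) NPC libraries, from 78.3 to 94.0 in astrocytes and from 20.9 to 30.9 in the Ch libraries. Allele-specific reads made up 30.5 to 31.8%, 33.4 to 34.8% and 18.9 to 21.1% of these. The 7 NPC markers summed to 4637 to 6364 CPM (reads per 1e6 reads of the library, TMM-scaled) in poly(A) NPCs. The sums were 4036 to 5074 CPM in Ch clones and 1360 to 2545 CPM in astrocytes. Not every marker was lower in astrocytes: Sox2 was at 38.6 to 117.5 CPM there and 26.8 to 46.3 CPM in Ch clones. Pax6 was at 32.8 to 70.8 CPM in astrocytes and 27.6 to 37.8 CPM in poly(A) NPCs. Mki67, a proliferation marker, was at 189 to 483 CPM in NPCs and 0.487 to 2.29 CPM in astrocytes. Gfap, an intermediate filament of astrocytes, was at 65.3 to 1912 CPM in astrocytes and 0.431 to 4.36 CPM in NPCs. The astrocyte list of 7 genes did not separate the groups as a sum, at 1110 to 3769 CPM in astrocytes, 873 to 1442 CPM in poly(A) NPCs and 639 to 1012 CPM in Ch clones: Slc1a3, a glutamate transporter, was high in all 3, and Aldh1l1 was at 2.48 to 11.5 CPM in astrocytes and 8.83 to 23.2 CPM in NPCs. Neuron markers summed to 14.7 to 29.1 CPM in NPCs and 4.65 to 36.8 CPM in astrocytes, and oligodendrocyte markers to 1.45 to 7.01 and 6.48 to 13.7 CPM. Markers of microglia summed to at most 0.155 CPM in any library, and those of endothelium to at most 1.72 CPM. Fibroblast or mesoderm markers summed to 2.08 to 10.8 CPM in NPCs and to 3.09 to 222.5 CPM in astrocytes; their part in the members' levels was not tested.

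Some clones carried an allelic imbalance over whole chromosomes or parts of them, which bears on what a monoallelic ratio means there. In 20 Mb windows with at least 10 measured genes, the median ratio was 0.0568 to 0.0925% Cast in all 5 windows of chromosome 18 in clone mG2, over 319 genes. Chromosome 12 was at 99.9 to 100% in all 6 windows in Ch5, Ch7 and Ch8, and chromosome 1 at 30.5 to 34.2% in all 10 windows in the 4 Ch clones and at 32.1 to 35.9% in clone 129. Clone G4 had medians of 64.6 to 66.1% on chromosome 18 and 7.27 to 10.0% in 2 windows of chromosome 4. The remaining windows outside 40 to 60% hold no member: chromosome 3 in G4 (64.0 to 67.4% in 8 windows) and 2 windows of chromosome 12 in G4 (71.3 to 71.8%) and F5 (73.3 to 73.4%). Of the 120 combinations of a member's own window with a clone, 3 had a median outside 40 to 60%: Slc27a6 in mG2 (0.0897%), Slc27a6 in G4 (64.6%) and Smpdl3b in G4 (10.0%). The other 117 window medians lay between 43.8 and 51.3%.

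In the 7 NPC clones, 68 of the 70 gene-clone combinations had at least 20 allele-specific reads. Of these, 15 were under 15% Cast, 14 were over 85%, 31 were biallelic (35 to 65%) and 8 were in between. Clone F5 contributed 9 of these 29 monoallelic values, 3 for the 129 allele and 6 for Cast, and was biallelic for 1 member, Aebp1. Over all autosomal values, 5.57% were monoallelic in the NPC clones and 5.59% in all 12 clones. Clone mG2 had 5 members on the 129 allele and 0 on Cast, Ch7 had 2 and 0, while Ch3 and Ch8 had 2 each on Cast and 0 on 129. Ch5 held both kinds, with 3 members on 129 and 2 on Cast, and mG6 had 2 of each. The alleles in use thus differed from gene to gene within a clone as well as from clone to clone.

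**Figure D1:**
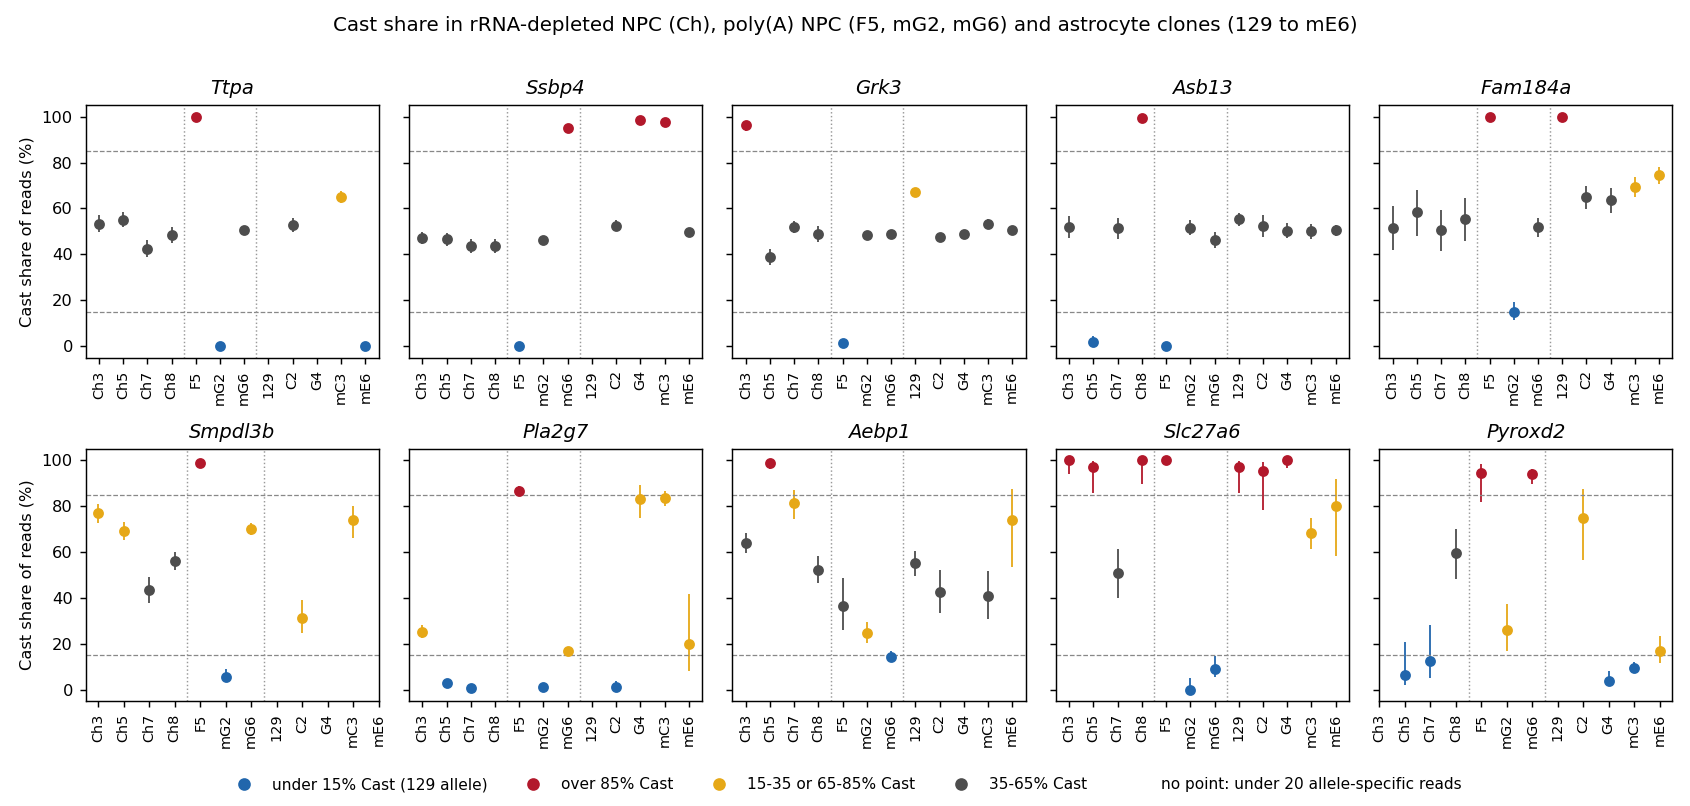
Allelic expression ratio (percentage of allele-specific reads from the Cast allele, y axis) of the 10 members in each of the 12 clones (x axis, in the order rRNA-depleted NPC, poly(A) NPC, astrocytes), with 95% Wilson intervals as bars and dashed lines at 15 and 85%. Every panel has at least 1 blue point under the lower line and 1 red point above the upper line among the NPC clones, and most points of Ttpa, Ssbp4, Grk3 and Asb13 lie near 50%.

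Asb13 (chr13:3633589-3653822 in GRCm38.p6) encodes a SOCS-box protein that presents substrates to a Cullin-based ubiquitin ligase. The 2 Ch5 libraries held 3 and 1 Cast reads against 118 and 98 reads of the 129 allele, a ratio of 1.82% (95% Wilson interval 0.709 to 4.58). In Ch8 the 118 and 97 Cast reads stood against 0 and 1 of the 129 allele, a ratio of 99.5% (97.4 to 99.9). Ch5 and Ch8 therefore used opposite alleles, each in both libraries, while Ch3 (51.9%) and Ch7 (51.3%) used both. F5 was on the 129 allele, with 1 Cast read of 916, and mG2 and mG6 were at 51.6% and 46.1%. All 5 astrocyte clones were biallelic, between 50.1 and 55.2%, with 435 to 1498 allele-specific reads each.

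The total level of Asb13 was 20 and 21.4 CPM in the Ch3 libraries and 22.7 and 19.7 CPM in Ch7, against 10.4 and 10.4 CPM in Ch5 and 11.4 and 9.57 CPM in Ch8. The 4 libraries of the monoallelic clones were all lower than the 4 of the biallelic clones. In edgeR's quasi-likelihood fit over all genes, Ch5 differed from Ch3 by -1.01 (SE 0.126, Benjamini-Hochberg adjusted p = 0.000756) and Ch8 from Ch7 by -1.02 (SE 0.126, adjusted p = 0.000726) on the log2 scale, where a difference of -1 is a fall to 0.5 times. Ch5 and Ch8 differed from each other by 0.01 (SE 0.130, adjusted p = 0.975), although 1 expressed the 129 allele and the other the Cast allele. Over all 17095 genes, the share called was 7.1% between Ch5 and Ch3, 10.6% between Ch7 and Ch3, 11.1% between Ch8 and Ch3, 6.41% between Ch7 and Ch5, 5.43% between Ch8 and Ch5 and 5.29% between Ch8 and Ch7. Clone F5 went against this: its 20.2 CPM from the 129 allele alone lay between the biallelic mG6 (19.8 CPM) and mG2 (28.3 CPM). The 129 allele by itself gave 8.89 CPM of allele-specific reads in F5, 6.08 in mG2 and 5.03 in mG6.

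The sequence around the Asb13 start site is shown with that of Ssbp4, another member with clear dosage values, because promoters rich in CG dinucleotides, the usual site of DNA methylation, are common among widely expressed genes. Both are given 5′ to 3′ from RefSeq, with CG in capitals, from 250 bases before to 50 bases after the start (GRCm38.p6, chr13:3633782-3634081 on the plus strand and chr8:70608265-70608564 on the minus strand). Their positions relative to 129 and Cast variants were not analysed here.
Asb13: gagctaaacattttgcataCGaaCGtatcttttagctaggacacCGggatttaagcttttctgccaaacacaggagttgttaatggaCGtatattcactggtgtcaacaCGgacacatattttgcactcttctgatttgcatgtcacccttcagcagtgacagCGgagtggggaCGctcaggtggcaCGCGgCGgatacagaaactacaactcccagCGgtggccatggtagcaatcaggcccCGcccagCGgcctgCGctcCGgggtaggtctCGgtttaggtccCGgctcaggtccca
Ssbp4: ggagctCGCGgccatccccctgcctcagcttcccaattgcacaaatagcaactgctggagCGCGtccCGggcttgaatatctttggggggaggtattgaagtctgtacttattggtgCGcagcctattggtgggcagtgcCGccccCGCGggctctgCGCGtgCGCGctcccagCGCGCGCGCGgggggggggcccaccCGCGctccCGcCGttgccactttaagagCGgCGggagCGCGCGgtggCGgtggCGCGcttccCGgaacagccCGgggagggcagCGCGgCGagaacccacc
The Asb13 window holds 17 CG dinucleotides and the Ssbp4 window 35, more than 68.6% and 93.0% of the 32851 promoter windows of the same length. Of the 10 members, 7 had such a window, and Ttpa, Grk3 and Slc27a6 had none. The others held 10 CG in Pyroxd2, 14 in Smpdl3b, 17 in Pla2g7, 18 in Aebp1 and 45 in Fam184a. Pyroxd2 was above 56.5% of all windows and Smpdl3b above 63.7%. Across all windows, 43.5% held at least 10 CG, but 10 is the lowest member's own count, so this share does not test the members. The letters C and G next to each other were counted on 1 strand, which for this motif counts both, and the count says nothing of methylation in these clones.

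Grk3 (chr5:112910478-113015660) encodes a kinase that phosphorylates activated G protein-coupled receptors. Ch3 was at 96.2% Cast, with 159 and 194 Cast reads against 4 and 10 of the 129 allele, and F5 was at 1.46%, with 23 Cast reads of 1577. The other 5 NPC clones were biallelic, from 38.8% in Ch5 to 51.9% in Ch7. In astrocytes, C2, G4, mC3 and mE6 lay between 47.4 and 53.3%, and clone 129 at 67.1%.

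Its total level was lowest in the monoallelic clone of each NPC group. The Ch3 libraries had 23.8 and 23.0 CPM, below Ch5 (41.2 and 35.1), Ch8 (48.7 and 45.2) and Ch7 (64.5 and 61.4). In edgeR's quasi-likelihood fit, Ch3 was lower than Ch5 by 0.69 (SE 0.0996, adjusted p = 0.00197), than Ch8 by 0.99 (SE 0.0995, adjusted p = 0.000199) and than Ch7 by 1.41 (SE 0.0992, adjusted p = 1.67e-05). The biallelic clones differed as well: Ch7 was above Ch5 by 0.73 (adjusted p = 0.00112) and Ch8 differed from Ch7 by -0.43 (adjusted p = 0.0217). F5 had 38.8 CPM against 121.1 in mG2 and 158.9 in mG6, a ratio of 0.277 to their mean, which is lower than 0.5. The expressed 129 allele of F5, at 15.1 CPM of allele-specific reads, was lower than the 129 allele in mG2 (25.2) and in mG6 (32.7).

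Ttpa (chr4:20007894-20030822) encodes the tocopherol transfer protein, which carries vitamin E. F5 expressed Cast (1646 of 1647 reads, 99.9%) and mG2 expressed 129 (3 Cast reads of 1284, 0.234%), while mG6 was at 50.5% and the 4 Ch clones at 42.5 to 55.1%. Total levels were 24.7 CPM in F5 and 28.0 CPM in mG2 against 51.5 CPM in mG6. The Cast allele gave 16 CPM of allele-specific reads in F5 and 16.6 in mG6, and the 129 allele gave 17.5 CPM in mG2 and 16.3 in mG6. Each single active allele of the NPC clones thus stood at the level of the same allele in the biallelic clone. Among Ch clones, all biallelic, Ttpa ranged from 23.9 to 32.4 CPM and did not pass the F test over the 4 clones (adjusted p = 0.0803).

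The astrocyte clones showed the same contrast for Ttpa and also very low levels. Clone mE6 expressed the 129 allele (1 Cast read of 653) at 11 CPM, against 21.2 CPM in the biallelic C2 and 28.3 CPM in mC3, which was at 65% Cast. Clone 129 held 1 read of Ttpa in all and G4 held 18, or 0.0104 and 0.230 CPM, too few to give a ratio.

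Ssbp4 (chr8:70597485-70608387) belongs to a family of single-stranded DNA-binding proteins that act as cofactors of LIM-domain transcription complexes. F5 expressed 129 (1 Cast read of 1091, 0.0917%) and mG6 expressed Cast (95%), whereas mG2 (46.1%) and the 4 Ch clones (43.6 to 47.0%) were biallelic. Total levels were 27.0 CPM in F5 and 32.8 CPM in mG6 against 89.2 CPM in mG2. In astrocytes, G4 (98.5% Cast, 31.6 CPM) and mC3 (97.8%, 34.8 CPM) were monoallelic, and C2 (52.5%, 58.1 CPM) and mE6 (49.7%, 83.8 CPM) were biallelic. Both monoallelic astrocyte clones were thus below both biallelic ones, with a ratio to their mean of 0.446 and 0.491. Clone 129 stood apart, with 31 reads in all (0.321 CPM).

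**Figure D2:**
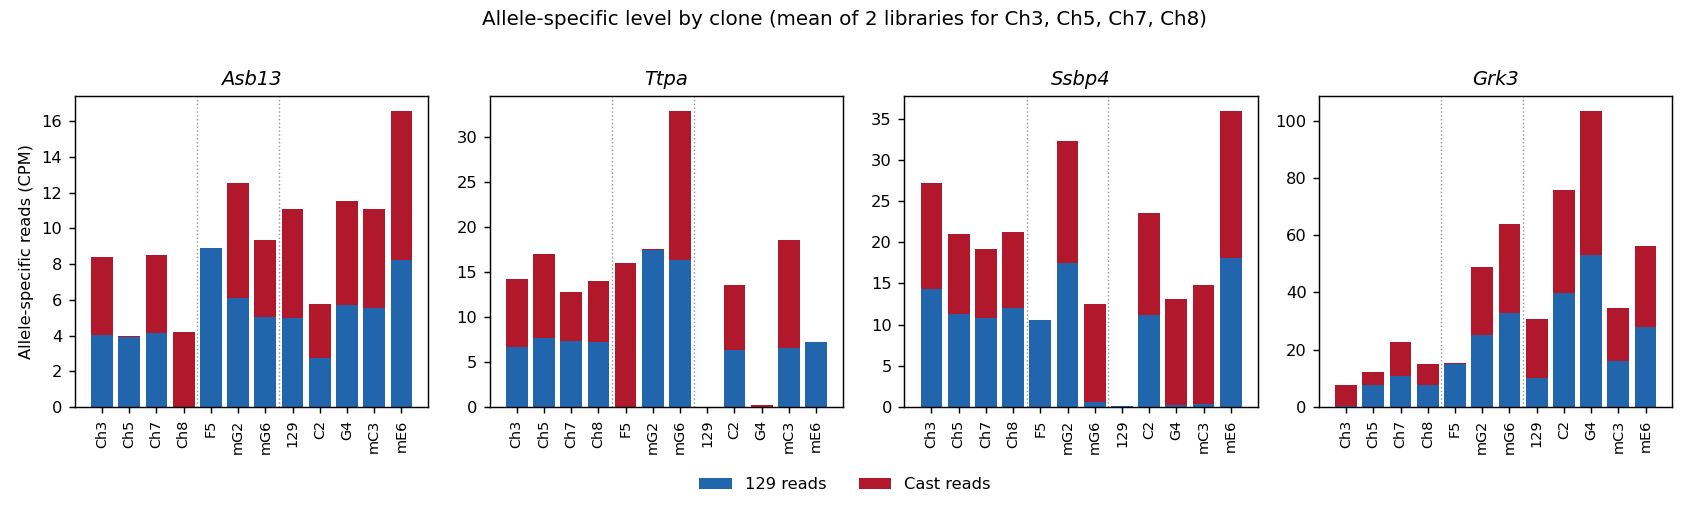
Allele-specific reads in CPM (y axis) of the 129 allele (blue) and the Cast allele (red), stacked, for Asb13, Ttpa, Ssbp4 and Grk3 in each clone (x axis, Ch clones as the mean of 2 libraries). Bars of 1 colour are the monoallelic clones: for Asb13 in Ch5 and Ch8 and for Ttpa in F5 and mG2 they reach about the height of 1 of the 2 colours in biallelic clones of the same group.

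Fam184a (chr10:53633035-53751277) encodes a coiled-coil protein of poorly known function. F5 was Cast-only (317 of 317 reads), mG2 was at 14.9% (46 of 309), just inside the limit, and mG6 was at 51.7%. The interval of mG2, 11.4 to 19.3%, spans the limit of 15%. Total levels were 7.22 CPM in F5 and 9.32 CPM in mG2 against 16.7 CPM in mG6. The 4 Ch clones were biallelic, at 50.4 to 58.4%, and the 8 libraries lay between 3.66 and 5.05 CPM (F test adjusted p = 0.961). In astrocytes, clone 129 was Cast-only (255 of 255 reads) at 5.30 CPM, and the other 4 clones ranged from 63.5 to 74.7% Cast and from 7.72 to 11.6 CPM.

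Slc27a6 (chr18:58556240-58612869) encodes a fatty acid transport protein. It was Cast-only in F5 (374 of 374 reads), Ch3 (61 of 61) and Ch8 (33 of 33), at 97.1% in Ch5 (35 reads), at 50.6% in Ch7 (81 reads) and at 8.97% in mG6 (145 reads). In mG2 it had 0 Cast reads of 70, a clone in which the whole of chromosome 18 read as 129, including 5 neighbours of Slc27a6 on 1652 to 22604 reads each. Without mG2, the 129 allele was the main one in mG6 alone, where the window median was within the range given above. Astrocyte clones leaned to Cast: 97.2% in clone 129, 95.5% in C2 and 100% in G4, and 68.4% in mC3 and 80% in mE6, on 20 to 187 reads. Cast was thus over 65% in 9 of the 12 clones.

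Its level was low throughout, from 0.509 CPM in mE6 to 8.24 CPM in F5. Among Ch clones, the biallelic Ch7 had 3.26 and 3.60 CPM, above Ch5 (1.90 and 1.51) and Ch8 (1.68 and 2.35), while Ch3 (3.59 and 2.08) overlapped it. None of the 3 contrasts with Ch7 was called (adjusted p = 0.660 for Ch3, 0.0740 for Ch5 and 0.169 for Ch8), and their unadjusted p were 0.360, 0.00713 and 0.0274. F5 had the highest level of the 3 poly(A) NPC clones from the Cast allele alone.

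Smpdl3b (chr4:132732966-132757171) encodes a membrane-anchored sphingomyelinase-like enzyme that dampens Toll-like receptor signalling. F5 was at 98.7% Cast (1324 reads) and mG2 at 5.33% (244 reads), while mG6 (70.1%), Ch3 (76.8%) and Ch5 (69.2%) leaned to Cast, and Ch7 (43.3%) and Ch8 (56.0%) were biallelic. No poly(A) NPC clone was biallelic for it, so total levels could not be set against one: they were 22.1 CPM in F5, 5.86 in mG2 and 27.6 in mG6. Among Ch clones the biallelic Ch7 and Ch8 were the lowest and the highest, at 9.80 and 10.1 CPM against 20.7 and 23.4 CPM (log2 difference 1.14, SE 0.112, edgeR adjusted p = 0.000163). In astrocytes Smpdl3b was at 0.0311 to 3.34 CPM, and only C2 (31.3%) and mC3 (73.8%) had enough reads for a ratio.

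Pla2g7 (chr17:43567994-43612202) encodes a secreted phospholipase that inactivates platelet-activating factor. It was on the 129 allele in Ch5 (2.85%), Ch7 (0.837%) and mG2 (1.02%), leaned to it in mG6 (16.9%) and Ch3 (25.1%), and was on Cast in F5 alone (86.6%, interval 84.4 to 88.6), just above the limit. The ratio of mG6 lay just above the lower limit and did not meet it. None of the 10 clones with a ratio was biallelic. Ch8 had 7 and 0 reads in all, while the other 6 Ch libraries had 448 to 949, or 16.6 to 39.0 CPM. Ch8 was called lower than Ch3, Ch5 and Ch7 (edgeR adjusted p = 6.34e-07, 7.32e-07 and 2.67e-06). The level of Ch7 was below that of Ch5 (log2 difference -0.91, SE 0.178, edgeR adjusted p = 0.0108), although both expressed the 129 allele. In astrocytes, C2 was at 1.02% (197 reads), G4 at 83.2%, mC3 at 83.5% and mE6 at 20% on 20 reads.

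Aebp1 (chr11:5861866-5872248) encodes a carboxypeptidase-like protein of the extracellular matrix. Ch5 was on Cast (98.9%, 188 reads) and mG6 just inside the lower limit (14.2%, 893 reads, interval 12.1 to 16.7). Ch7 (81.5%) and mG2 (24.5%) were neither monoallelic nor biallelic, and Ch3 (64.1%), Ch8 (52.3%) and F5 (36.4%) were biallelic. The Ch5 libraries had 8.94 and 11 CPM, below Ch8 (14.4 and 12.7) and Ch3 (23.7 and 24.6). The difference of Ch5 from Ch3 was -1.30 on the log2 scale (SE 0.152, edgeR adjusted p = 0.000514). Ch8 was above Ch5 by 0.45, which was not called (SE 0.154, adjusted p = 0.118), and the difference of Ch8 from Ch3 was -0.86 (adjusted p = 0.00587). The poly(A) NPC clones ran the other way: mG6 had 22.9 CPM and the biallelic F5 had 1.36 CPM on 66 allele-specific reads. Aebp1 and Pold2 overlap at one end in the annotation, and reads were counted by strand. Pla2g7 and Pyroxd2 also overlap annotated genes, the long noncoding RNAs 1700071M16Rik and Gm19437.

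Pyroxd2 (chr19:42725857-42752823) encodes a mitochondrial protein with an oxidoreductase domain. It was on Cast in F5 (94.4%, 36 reads) and mG6 (93.8%, 224 reads) and on 129 in Ch5 (6.45%, 31 reads) and Ch7 (12.5%, 32 reads), and was biallelic in Ch8 (59.5%, 74 reads). The intervals of Ch5 (1.79 to 20.7%) and Ch7 (4.97 to 28.1%) both reach past 15%. No clone outside the Ch group was biallelic for it. Levels were 3.64 and 2.58 CPM in Ch8, 0.880 and 1.28 CPM in Ch5 and 1.34 and 0.929 CPM in Ch7. Ch5 was below Ch8 by 1.53 (SE 0.319, edgeR adjusted p = 0.0151) and Ch7 by 1.44 (SE 0.316, adjusted p = 0.0195). Both calls were lost without library 1 of Ch8 (adjusted p = 0.0641 and 0.0816). The Ch5 call was also lost without library 1 of Ch5 (adjusted p = 0.104), and the Ch7 call without library 1 (0.0548) or 2 (0.162) of Ch7. In astrocytes Pyroxd2 was on 129 in G4 (3.60%) and mC3 (9.53%), at 16.8% in mE6 and at 75% in C2 on 28 reads. In each of the other groups a monoallelic clone was the highest: mG6 had 4.70 CPM against 1.44 in mG2 and 0.583 in F5, and mC3 (11.8 CPM) and G4 (3.15) were above mE6 (2.63) and C2 (0.726).

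**Figure D3:**
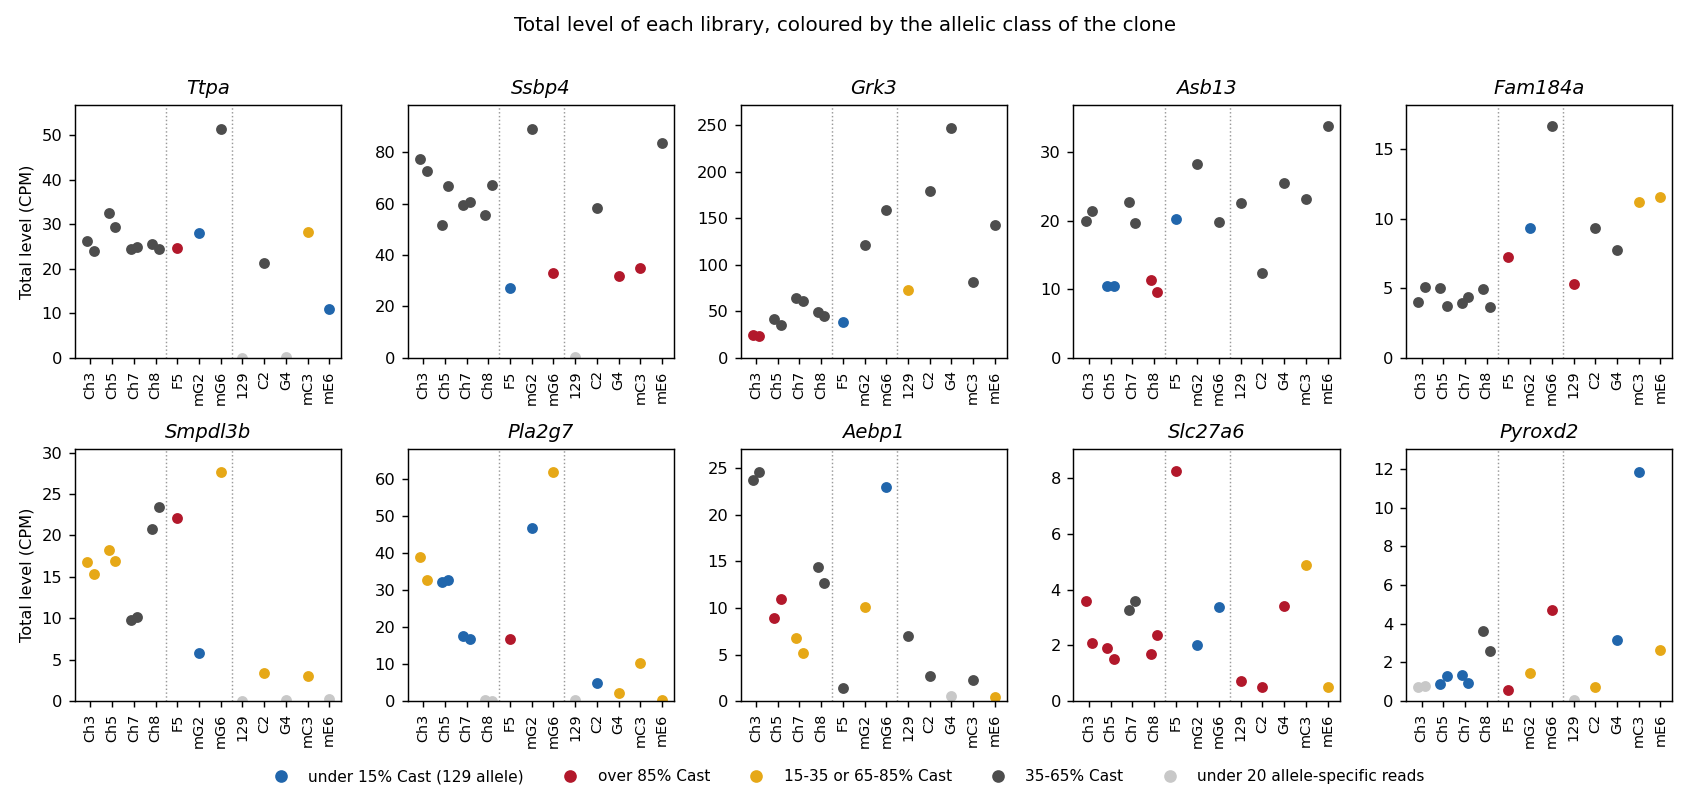
Total level in CPM (y axis, from 0) of each library of the 12 clones (x axis) for the 10 members, with colours for the allelic class of the clone and 2 points for each Ch clone. Red and blue points lie under the dark grey (biallelic) ones of the same group for Ttpa, Ssbp4 and Grk3, whereas for Asb13 the blue point of F5 lies among the dark grey ones and for Aebp1 the blue point of mG6 is the highest of its group.

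The 2 libraries of a Ch clone were compared for ratios with at least 20 allele-specific reads in each library. The monoallelic ratios of Slc27a6 in Ch5 and Ch8 and of Pyroxd2 in Ch5 and Ch7 fell short of this and were not compared. Fisher's exact test, two-sided, compared the libraries for all genes holding 20 or more such reads in each, adjusted over 42611 gene-clone comparisons, of which 0.322% were called. Of the 34 comparisons of members, 0 were called, with a smallest adjusted p of 0.206 (Aebp1 in Ch8, 60.4 against 42.6%). An unadjusted p under 0.05 was found in 5 of the 34 and in 10.4% of all comparisons, so libraries of 1 clone varied by more than counting error; the intervals cover counting error only. The median difference between libraries was 3.42 percentage points and the largest, 23.6, belonged to Slc27a6 in Ch7 on 43 and 38 reads.

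Setting each monoallelic clone beside the biallelic clones of its own group gave 22 combinations from 8 members. No biallelic clone was available for Pla2g7, or for Smpdl3b in the groups where it was monoallelic. Clones were sorted here by a measured ratio, so no test was made. In most combinations the biallelic level came from 1 clone, which combinations of a member could share. Slc27a6 in Ch3, Ch5 and Ch8 all stood against Ch7, and Pyroxd2 in Ch5 and Ch7 against Ch8. The 22 are therefore not independent. The total level, as log2(CPM + 0.5), was nearer to 0.5 times the biallelic level than to equal (a difference under -0.5) in 19 of the 22, and the median difference was -0.97. Among all autosomal gene-clone pairs 40.7% were under -0.5, and 59.6% without pairs in windows whose median was outside 40 to 60%. By group, the members' counts were 7 of 9 in poly(A) NPCs, 8 of 9 in Ch clones and 4 of 4 in astrocytes, beside 40.4%, 15.5% and 62.3% of all pairs, or 60.8%, 57% and 59.7% without those windows. The 3 combinations above -0.5 were Asb13 in F5 (-0.22), Slc27a6 in Ch3 (-0.24) and Aebp1 in mG6 (3.66).

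The expressed allele alone was compared with the same allele in biallelic clones. Its median difference was -0.06, and 17 of the 22 lay within 0.5 of 0, beside 38.1% of all autosomal pairs and 52.3% without the windows outside 40 to 60%. The exceptions were Ssbp4 in F5 (-0.69) and Grk3 in F5 (-0.90), where the active allele was itself lower, and Asb13 in F5 (0.64), Slc27a6 in Ch3 (0.55) and Aebp1 in mG6 (3.44), where it was higher. Of these 5, 3 were in clone F5. Over all other autosomal pairs the median of the expressed allele was 0.46, and it was 0.04 over all autosomal pairs without those windows.

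**Figure D4:**
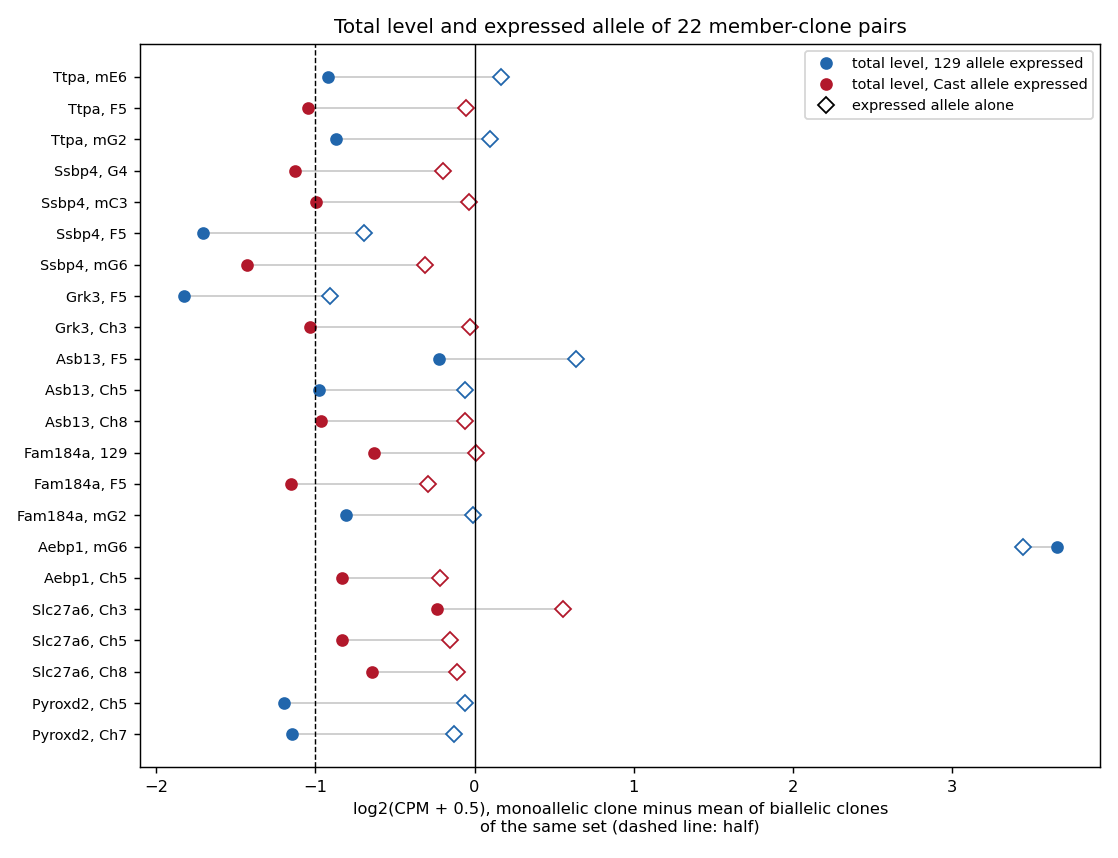
Difference in log2(CPM + 0.5) between a monoallelic clone and the mean of the biallelic clones of the same group (x axis) for 22 member-clone pairs (y axis), as total level (filled circles, blue for 129 and red for Cast) and as the expressed allele alone (open diamonds). In 19 pairs the circle is left of -0.5, most near the dashed line at -1, and 17 diamonds lie within 0.5 of 0.

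The Ch clones allow a test of the total level, because each has 2 libraries and the F test is over the clone labels. Among NPCs, however, Asb13, Grk3, Aebp1 and Pyroxd2 met 1 of the limits only in Ch clones. Those allele-specific reads are part of the totals tested, so the count of members called is a description. Over the 4 clones it called 6 of the 10 members (Grk3, Asb13, Smpdl3b, Pla2g7, Aebp1 and Pyroxd2), where 16.6% of all 17095 genes tested were called. Of the 4 not called, Ttpa, Ssbp4 and Fam184a were biallelic in all 4 Ch clones. Slc27a6 (F test adjusted p = 0.109) was not called either, though biallelic in Ch7 and monoallelic for Cast in Ch3, Ch5 and Ch8. Among those called, Smpdl3b was monoallelic in no Ch clone and Pla2g7 was biallelic in none. Ssbp4 (adjusted p = 0.153) was called without library 2 of Ch5 (adjusted p = 0.0343). The pairwise contrasts were then sorted by the same ratios that chose the members, so their counts are a description. They come from 5 members (4 of Asb13, 3 each of Grk3 and Slc27a6, 2 each of Aebp1 and Pyroxd2), and contrasts of 1 gene share libraries. In these, 14 paired a monoallelic with a biallelic clone of the same member, and 10 of these were called, all lower in the monoallelic clone, with a median log2 difference of -1.01. Lower calls of this kind made up 20.2% of such contrasts over all autosomal genes and 53.7% without the windows outside 40 to 60%. Where both clones were biallelic, 4 of 24 contrasts of members were called, beside 6.83% of all autosomal contrasts of that kind (6.73% without those windows). Where both clones were monoallelic, 1 of 6 was called, beside 11.9% (17.4% without those windows).

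**Figure D5:**
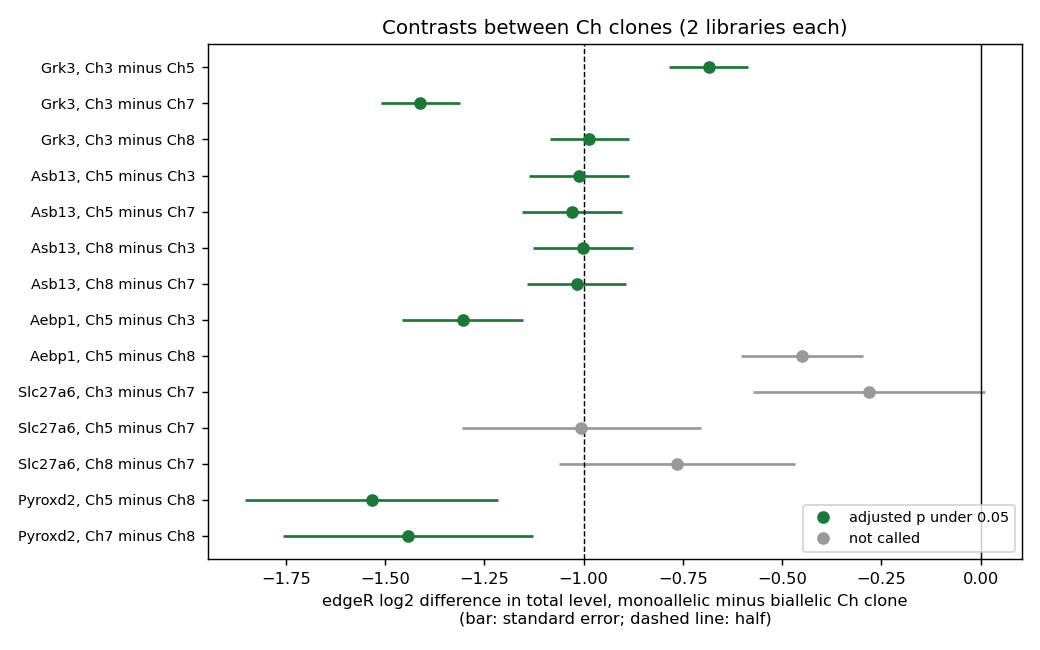
edgeR log2 difference in total level (x axis) of the 14 contrasts between a monoallelic and a biallelic Ch clone (y axis, 2 libraries per clone), with the standard error as bars, green where the adjusted p was under 0.05. All 14 points are below 0, 10 are green, and the 4 Asb13 points lie at the dashed line at -1, which marks 0.5 times the biallelic level.

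In the 5 astrocyte clones, which did not enter the choice of members, 41 of 50 combinations had a ratio: 10 were monoallelic (4 for 129 and 6 for Cast), 14 were in between and 17 were biallelic. Over all autosomal genes, 5.62% of astrocyte values were monoallelic and 81.7% biallelic. None of the members was under 15% in 1 astrocyte clone and over 85% in another, a pattern that 0.961% of autosomal genes had. The monoallelic values belonged to Slc27a6 (3), Ssbp4 (2), Pyroxd2 (2), Ttpa, Fam184a and Pla2g7 (1 each), while Asb13, Grk3, Smpdl3b and Aebp1 had 0. The 9 combinations without a ratio included 5 members in clone 129.

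Total levels in astrocytes were set against those in poly(A) NPCs, 5 clones against 3. Pla2g7 was at 3.58 ± 4.21 CPM (SD, n = 5) in astrocytes and 41.8 ± 22.9 CPM (SD, n = 3) in NPCs, and the groups did not overlap. It was the 1 member that edgeR's quasi-likelihood test called (log2 difference -3.53, SE 1.11, adjusted p = 0.0475), where 12.6% of genes were called lower in astrocytes, 13% higher and 25.5% in either direction. That call was lost without C2 (adjusted p = 0.0766), G4 (0.0905), mE6 (0.0622), F5 (0.0710), mG2 (0.115) or mG6 (0.121), and with sex as a covariate (0.0811). Smpdl3b, at 1.35 ± 1.68 CPM in astrocytes and 18.5 ± 11.3 CPM in NPCs, did not overlap either (33.9% of genes did not) and had an adjusted p of 0.0692 in edgeR and 0.00654 in DESeq2. The other 8 members overlapped between the groups, with adjusted p from 0.166 to 0.905. In simulated counts with the spread of this comparison, 62 of 200 well-covered genes changed by 2 on the log2 scale were recovered.

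The neighbours were up to 4 of the nearest measured autosomal genes on each side, 77 in all, since Asb13 had 5 with 1 of them before it. They lay up to 2626023 bases away (Gja1 for Fam184a) and gave 848 values over the 12 clones, of which 700 (82.5%) were biallelic, beside 82% of all autosomal values. In the clones where a member was monoallelic, 223 of 275 neighbour values were biallelic, 12 were monoallelic for the member's own allele and 5 for the opposite one. Of the 12, 7 were neighbours of Slc27a6 in mG2. Without windows outside 40 to 60%, 218 of 261 values (83.5%) were biallelic, with 5 on the same and 5 on the opposite allele. These 5 were Opn5 beside Pla2g7 in Ch5 and Ch7, and Adamts19 in C2 and Minar2 in clone 129 and mG6 beside Slc27a6, at 20 to 75 reads. Opn5 was under 15% in 8 clones and over 85% in 0, and Akr1c19, beside Asb13, was over 85% in 7 and under 15% in 0. The 7 monoallelic neighbours of Smpdl3b were all in clone G4, at 5.77 to 9.48% Cast, where the window median was 10.0%.

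Genes of the same families were read in the same way. Of 45 relatives of the members, 39 had a ratio in at least 1 clone, and 362 of their 405 values (89.4%) were biallelic, beside 82% of all autosomal values. Monoallelic values numbered 18 (4.44%, beside 5.59% of all autosomal values), in 9 relatives. Of the 38 relatives measured in 2 or more clones, 0 were monoallelic for opposite alleles, a pattern that 2.24% of autosomal genes had over the 12 clones, so the count is no result about the relatives. Asb8, a relative of Asb13, was Cast-only in clone 129 (99.8%), C2 (99.8%) and F5 (100%). Sec14l2, which like Ttpa has a lipid-binding CRAL-TRIO fold, was on 129 in clones 129, C2 and G4 (0 to 1.89%). Fam184b, the only relative of Fam184a listed, was under 15% in 5 clones, from 3.64% in mC3 to 13.1% in G4. The others were Clvs1 in mC3 (11.4%), Smpd1 in G4 (97.6%), Pafah2 in G4 (5.88%), Cpxm1 in mE6 (11.1%), Cpxm2 in clones 129 and G4 (0%) and Cpz in mG2 (11.1%). Pafah2 lies in the window of chromosome 4 with a median of 10.0% in G4, so its own ratio cannot be told apart there from that of its region. The other 17 values lay in windows within 40 to 60%.

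A search for the autosomal gene whose ratios most resembled each member's, over at least 10 shared clones, gave Pearson r from 0.869 (Epas1 for Asb13) to 0.912 (Timm44 for Grk3) as the best of 9732 to 10243 genes compared. 0 of these 9 genes were monoallelic for opposite alleles. Timm44 ranged only from 50.7 to 58.3% Cast, and Rpl5-ps2, the nearest to Slc27a6, from 93.3 to 100%. Each r rests on 10 to 12 clones and is the highest of all genes compared, so it is a description only. Smpdl3b had 9 clones with a ratio and was not compared.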

How the data were processed

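RNA-seq of 16 libraries from 12 clonal lines was analysed. Per the labels and the study's methods, the authors aligned reads with TopHat2 2.1.0 and Bowtie2 to GRCm38 with variant positions masked, assigned them to the Cast or 129 allele with SNPsplit, and counted them per gene, by strand, with featureCounts 1.5.1; the annotation version is not given in the sources used here. The deposited files hold, for each library, counts of all reads, Cast reads and 129 reads per gene, and a deposited fraction, the Cast share. The 210803 deposited fractions matched the share recomputed from the counts to within 5e-07 and were not used further. A masked genome limits mapping bias, but reads without a variant enter only the total, and low counts leave the share imprecise.

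Groups followed the labels. Libraries of a Ch clone were summed for ratios and averaged for levels. Their counts differed by 10.6 to 60.9 times the sampling noise (chi-square per gene), so they were kept as separate libraries. Ratios needed at least 20 allele-specific reads. Wilson intervals (95%) cover counting error only, and PCR reads are not independent molecules. CPM used TMM factors computed within the 8 poly(A) and within the 8 Ch libraries, so levels of members are compared only inside each set. Marker ranges given for NPCs as a whole take in both sets, which are not on 1 scale. Total levels were tested with edgeR 4.0.16 (quasi-likelihood, filterByExpr, R 4.3.3), adjusted over all genes by Benjamini-Hochberg at 0.05; the 6 Ch contrasts were adjusted jointly. DESeq2 1.42.0, other scaling, no filter, other read minimums and limits, single libraries and left-out libraries were alternatives. Fisher's exact test used Python 3.11.15. Scripts were tested on simulated data, with the changed genes drawn only from those of higher coverage than Slc27a6 and Pyroxd2 had in Ch libraries. The simulated Ch F test over 14430 genes recovered 199 of 200 genes changed by 1 (log2). The Fisher test over 10434 recovered 194 of 200.

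Gene symbols were matched by Ensembl ID (32722 of 50600 genes) and positions by symbol to RefSeq GRCm38.p6 (26019 genes). Grk3 appears under the older symbol Adrbk2 in the ID table. The 10 members, the relatives and the marker lists were chosen with earlier results of these data known. Named genes were the members, relatives and neighbours past 15 or 85%, and the gene with the most similar ratios; neighbours were the 4 nearest genes on each side with ratios in at least 4 clones. Promoter windows were found for 7 members.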

Additional observations from a re-analysis of the deposited data

Results flagged for a closer look

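Among 18 groups of 4 or 5 astrocyte values of the members (total level or ratio), 1 had a clone far from the others by Dixon's criterion, where chance gives about 1 in 20. It was the total level of Ssbp4 in clone 129, at -0.28 as log2(CPM + 0.5), or 0.321 CPM, against 31.6 to 83.8 CPM in the other 4 astrocyte clones. The gap to the nearest clone was 0.792 of the whole range, where the critical value is 0.71.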

How the results depend on the processing

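The number of members called between astrocytes and poly(A) NPCs was 1, 2 with DESeq2, 0 with sex as a covariate and 0 to 1 when 1 library was left out. Over all genes the count for that comparison was 4644, and 2269 to 4849 with 1 library left out, with 2667 without F5, 2269 without mG2 and 3030 without mG6. In the Ch F test, 2834 genes were called, 4361 without the filter and 1509 to 3245 with 1 library left out; 6 members were called, 8 without the filter and 6 to 7 with 1 library left out. Over the 6 Ch contrasts, 7846 were called, 11863 without the filter and 4443 to 8574 with 1 library left out. The lowest values of both came without library 2 of Ch3, and those without either library of Ch7 were next for the contrasts (4728 and 4734). The share of biallelic neighbour values was 82.5%, 86.6% with at least 50 reads and 69.2% with biallelic set at 40 to 60%. The causes were not tested, except that narrower limits call fewer values biallelic by construction.

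The median total-level difference of monoallelic clones, -0.97, ranged from -0.99 to -0.87 when 1 clone was left out, and 83.3 to 93.8% of pairs (86.4% with all clones) were then under -0.5; with at least 10 reads 77.3% were. Dropping unbalanced windows, a choice made once the data had been seen, removed none of the members' pairs, so it could not change either value. Aebp1 changed sign: its median of 2 pairs, 1.41, was -0.43 with biallelic set at 40 to 60%, -0.83 with limits of 10 and 90%, and -0.83 to 3.66 with 1 clone left out. Ssbp4 moved from -1.28 to -0.21 at a minimum of 10 reads, where clone 129, with 15 reads and 0.321 CPM, counted as biallelic. Without the filter, the F test also called Ssbp4 (adjusted p = 0.0243) and Slc27a6 (0.00839), and the contrast of Ch7 with Ch5 for Slc27a6 (adjusted p = 0.00582).

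Deviations of same-numbered Ch libraries correlated at -0.18 to 0.279 over the 6 pairs of clones, with both signs. Whether library numbers mark paired libraries was not settled by this, and the main fit had no replicate block. With the number as a replicate block, 3391 genes and 6 members were called in the F test, and 9692 contrasts, 28 of them of members (26 without the block). Ratios on 20 to 40 reads, as for Slc27a6 and Pyroxd2, limit the members least expressed.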
